A study of Schizosaccharomyces pombe with 8 samples.

Results

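The genes described are the 7 sense features named str1, str3, str2, shu1, abc3, sib1 and sib2 among the 6973 features that the read counts list for fission yeast (Schizosaccharomyces pombe). Their products take up iron-binding siderophores or heme, release heme stored in the vacuole, or make the siderophore ferrichrome. The set was taken by gene name. It was drawn up because str3 and shu1 stood far above wild type in the double mutant described next, so the members' values in that double mutant are given as a description, with fold changes and errors but no test. The tests on members compare each single mutant with wild type, and they share the 2 wild type libraries with the comparison that chose the set.

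Total RNA was sequenced from 4 homothallic (h90) genotypes, with 2 libraries each: the double mutant mot2∆ mamRNA∆ (mamRNA::hygTK and mot2::kanMX), the single mutants mot2∆ (mot2::natMX) and mamRNA∆ (mamRNA::natMX), and wild type (wt), which carries no deletion. Mot2 belongs to the Ccr4-Not complex and acts as a ubiquitin ligase. The long non-coding mamRNA was examined by the study as a bridge between the meiotic regulators Mmi1 and Mei2. All cells grew exponentially in EMM minimal medium at 30 °C to an optical density of 0.6. The double mutant carries other selection cassettes than the single mutants, so cassette and genotype cannot be told apart, and the sources do not say whether the 2 libraries of a genotype came from separate cultures or isolates. The p-values therefore measure only the spread between these libraries, which may be technical.

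Fission yeast acquires iron by several routes. The reductive route uses ferric reductases at the cell surface and a ferroxidase-permease pair. The siderophore route imports ferric siderophores through transporters of the Str family, and the heme route uses the cell-surface receptor Shu1 and the transporter Str3. When iron is plentiful, the GATA-type repressor Fep1 keeps the genes of all these routes down by binding short elements ahead of them. When iron is scarce, Fep1 loses its hold and the repressor subunit Php4 turns down genes whose products consume iron.

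Because Fep1 is known to act through GATA-type elements, the 1000 bases ahead of each start codon were searched on both strands, in the RefSeq genome ASM294v3, for the 9-letter element ATCNGATAA, where N is any base. Within that window the element was present ahead of 6 of the 7 genes, all but sib2. It was present ahead of 239 of 5112 annotated protein-coding genes (4.68%). The sib1 copy lies between sib1 and sib2, which run away from each other, and falls just outside the window of sib2. The shorter core, AGATAA or TGATAA, was present ahead of all 7 genes and of 87.1% of annotated protein-coding genes, so it hardly separates genes. An element with A or T at N contains the core. The copies are shown because they are what the 6 genes share in sequence, and because genes with and without a change in RNA both carry them. Each is 25 bases read 5′ to 3′ on the strand stated, with the element in capitals.
str1, chrII:2704642-2704666, plus strand, 865 bases ahead of the start codon: tgccgaccATCAGATAAttcttatt
str1, chrII:2705019-2705043, minus strand, 488 bases ahead: atctgatgATCTGATAAgtatccag
str3, chrI:90894-90918, minus strand, 643 bases ahead: cgttggcaATCTGATAAtttaagac
str3, chrI:90547-90571, plus strand, 296 bases ahead: atttattaATCCGATAAagtcgagt
str2, chrIII:1442035-1442059, minus strand, 49 bases ahead: gctatacgATCTGATAAtttgtgtt
shu1, chrI:86897-86921, minus strand, 627 bases ahead: caatatccATCTGATAAgtaaaatc
shu1, chrI:86392-86416, minus strand, 122 bases ahead: tcaagataATCAGATAAtttagctt
abc3, chrII:122537-122561, minus strand, 194 bases ahead: ttaataacATCTGATAAattaatcg
sib1, chrI:869977-870001, minus strand, 458 bases ahead: ctctatcgATCTGATAAatataagg

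A match is a description of letters and not of a bound site. Of the 9 copies, 3 carry a base other than T at N, and str1, str3 and shu1 hold 2 copies each. The str3 copy farther from the start codon lies inside the annotated non-coding RNA SPNCRNA.604. The nearer end of that RNA is 391 bases from the annotated str3 transcript, on the same strand.

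**Figure D1:**
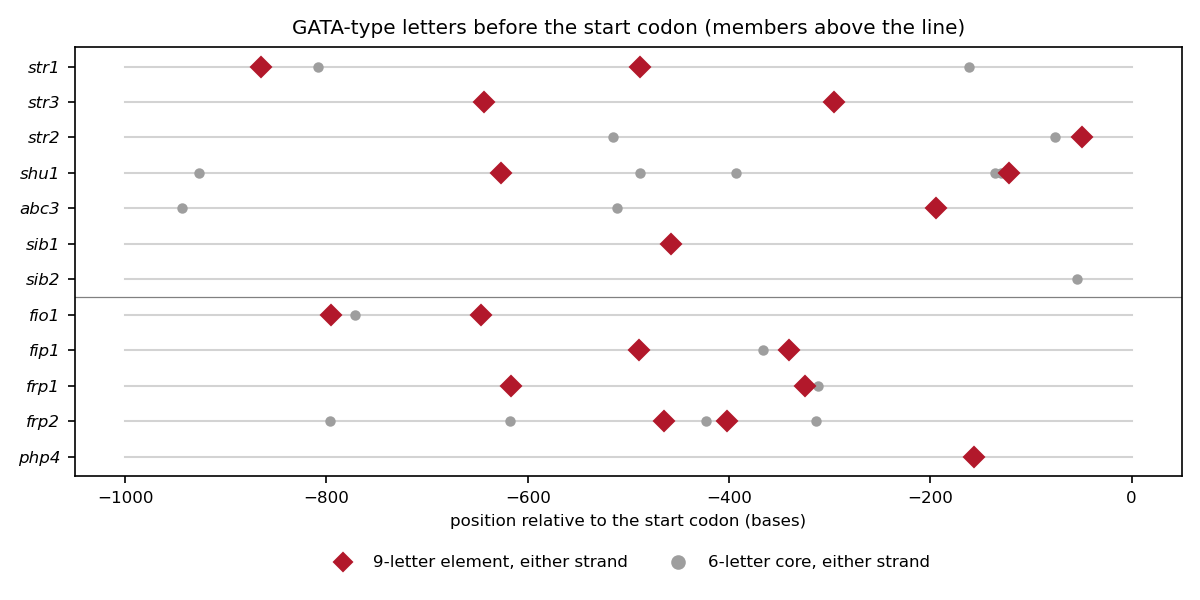
Position of GATA-type letters in the 1000 bases ahead of the start codon (x axis, bases relative to the start codon) for the 7 genes, above the line, and for fio1, fip1, frp1, frp2 and php4, below it. Diamonds mark the 9-letter element and dots the 6-letter core on either strand. Within these bases sib2 alone has no diamond, and the genes of the reductive route and php4 have them too. The diamonds of fio1 and fip1 are the same copies, which lie between both genes.

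The libraries held 22381332 to 34667534 counts. Levels are given as CPM, the counts of a feature per 1000000 counts of its library after TMM scaling. mot2 itself was at 2.72 and 2.77 CPM in mot2∆ mamRNA∆, 4.11 and 4.26 CPM in mot2∆ and 18.9 and 18.8 CPM in mamRNA∆, against 22.3 and 23.4 CPM in wt, which fits the mot2∆ labels. The mamRNA∆ labels have no such check, since mamRNA was not analysed here. The counts behaved as if strand had not been used: the feature antisense to adh1 held about as many counts as adh1 in every library, for example 6194 and 6296 CPM against 6024 and 6161 CPM in mot2∆ mamRNA∆. A gene and a feature on the other strand of the same stretch cannot be told apart here. In bulk RNA, more cells that express a gene and more RNA per cell cannot be told apart either.

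In mot2∆ cells, the siderophore transporter gene str1, the heme transporter gene str3 and the heme receptor gene shu1 were called higher than in wt, and none of the 7 was called lower. A call required an adjusted p under 0.05 in edgeR's quasi-likelihood F test (Benjamini-Hochberg adjustment over 6620 tested features) and a change of more than 2-fold. These 3 of 7 stand against 4.68% of all features called higher and 3.88% called lower, and 1 of them, shu1, had counts too low in wt for its call to go any other way. By the p alone, 5 of the 7 passed higher and 1 lower, against 29.1% and 30.2% of features. DESeq2 also called 0 lower, and at an unadjusted p under 0.05 the 1 lower was str2. In mamRNA∆ cells none of the 7 was called in either direction, against 2.52% of features called higher and 1.47% called lower. By the p alone, 1 passed lower in mamRNA∆, against 22.7% of features, and none passed higher, against 19.9%. That 1, abc3, was also the 1 with an unadjusted p under 0.05, and DESeq2 called 0 of the 7.

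**Figure D2:**
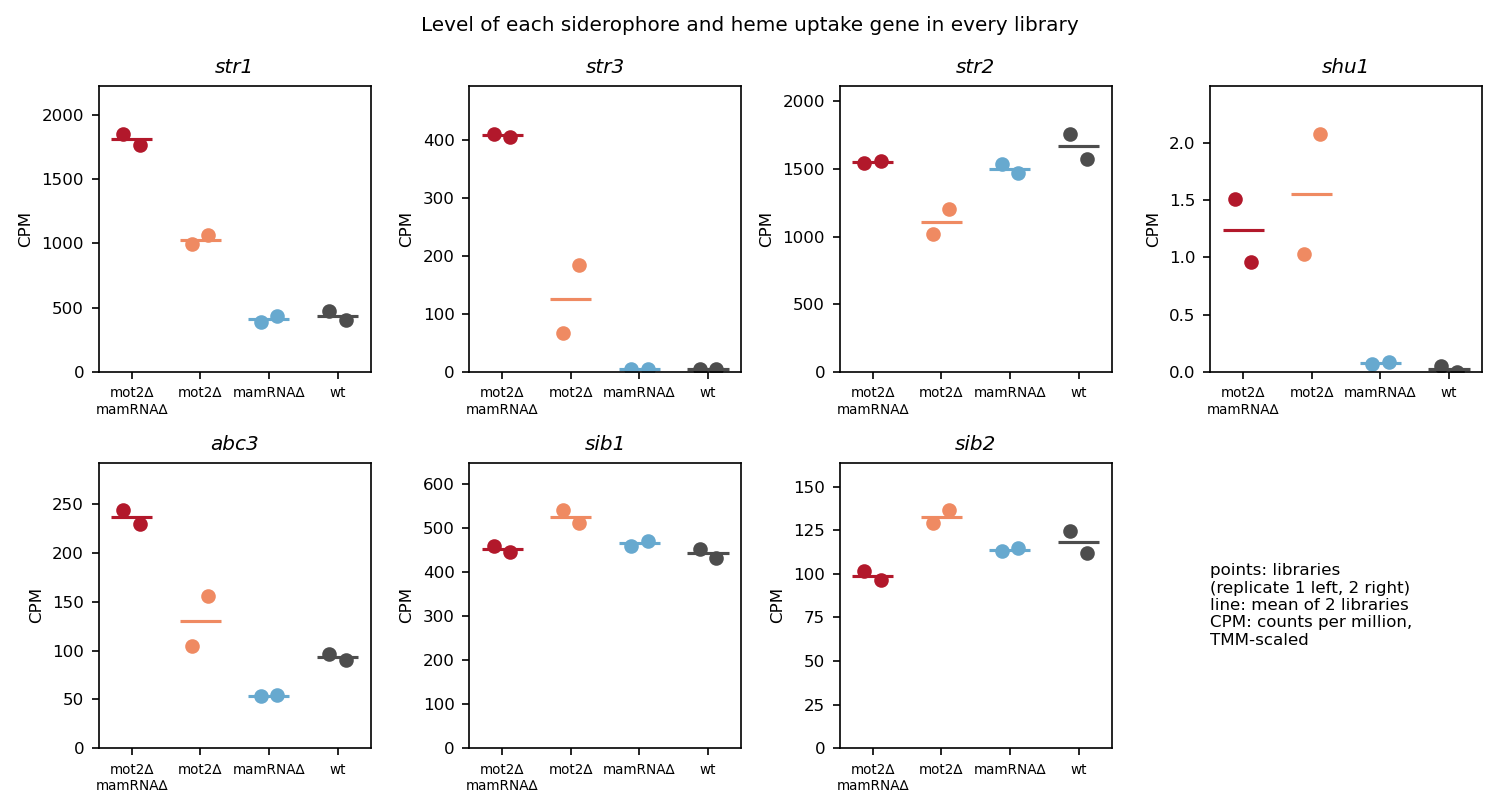
CPM (y axis, linear from 0, a different scale in each panel) of each gene in the 4 genotypes, with a point per library and a line at the mean of 2. str1, str3 and abc3 are highest in the mot2∆ mamRNA∆ libraries, shu1 is above its floor only where Mot2 is absent, and sib1 and sib2 lie close together in all genotypes.

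The str1 gene (chrII:2704657-2707648, plus strand, 1 coding exon of 1839 bases) encodes the main ferrichrome transporter at the cell surface. It had 1854 and 1764 CPM in the mot2∆ mamRNA∆ libraries, 991 and 1062 CPM in mot2∆ and 388 and 434 CPM in mamRNA∆, against 470.4 and 401 CPM in wt. The double mutant was thus highest and mot2∆ next, each clear of the others, while mamRNA∆ and wt overlapped. In mot2∆, str1 rose by a log2 fold change of 1.24 (SE 0.10, adjusted p = 8.61e-07, edgeR), which is 2.36-fold. The change in mamRNA∆ was -0.08 (SE 0.10, adjusted p = 0.518). The double mutant lay 2.05 above wt (SE 0.10), 0.82 above mot2∆ (SE 0.10) and 2.14 above mamRNA∆ (SE 0.10) on the log2 scale.

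The str3 gene (chrI:88201-90289, minus strand, 1 coding exon of 1893 bases) encodes a Str-family transporter that imports heme. It had 411 and 405 CPM in mot2∆ mamRNA∆, 66.3 and 185 CPM in mot2∆ and 5.01 and 4.01 CPM in mamRNA∆, against 4.09 and 5.28 CPM in wt. As for str1, the double mutant stood highest and mot2∆ next, and mamRNA∆ overlapped wt between 4.01 and 5.28 CPM. Its rise in mot2∆ was 4.73 on the log2 scale (SE 0.41, adjusted p = 1.43e-06, edgeR), or 26.5-fold, with the replicates of mot2∆ differing 2.79-fold. Leaving out 1 library at a time moved that value between 3.81 and 5.30. The mamRNA∆ change was -0.08 (SE 0.51, adjusted p = 0.916). Against wt the double mutant lay 6.43 higher (SE 0.42), the value for which the set was drawn up. Against mot2∆ it lay 1.70 higher (SE 0.31), between 1.14 and 2.62 when 1 library was left out.

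For str2 (chrIII:1435212-1442015, minus strand, 1794 coding bases in 2 exons), a transporter of the same family that carries ferric siderophores, most counts were shared with another gene. The annotated span of str2 runs over the ribosomal protein gene rpl6 and the gene jmj4 on the other strand, and the rpl6 counts equalled 89.3% to 93.9% of the str2 counts in each library. The feature str2 had 1541 and 1558 CPM in mot2∆ mamRNA∆, 1016 and 1200.1 CPM in mot2∆ and 1534 and 1471 CPM in mamRNA∆, against 1761 and 1576 CPM in wt. It passed as lower in mot2∆ by -0.59 (SE 0.10, adjusted p = 0.000323, edgeR), and rpl6 was lower there by -0.64 (SE 0.10, adjusted p = 0.000197). With the counts of rpl6 and jmj4 taken away, an alternative chosen after seeing the data, str2 held 97.5 and 85.6 CPM in mot2∆ mamRNA∆, 93.8 and 103 CPM in mot2∆ and 89.8 and 78.9 CPM in mamRNA∆, against 97.6 and 103 CPM in wt. These remainders overlapped between mot2∆ and wt, with a change of -0.02 (SE 0.09, adjusted p = 0.823). In mamRNA∆ the remainder was lower by -0.25 (SE 0.09, adjusted p = 0.0365), whereas the whole feature was at -0.15 (SE 0.10, adjusted p = 0.246). The double mutant remainder was at -0.13 (SE 0.09) against wt. No remainder difference reached 2-fold.

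The shu1 gene (chrI:85566-86278, minus strand, 1 coding exon of 681 bases) encodes the heme receptor anchored at the cell surface, and it was the least abundant of the 7. It had 50 and 29 counts in mot2∆ mamRNA∆, 31 and 64 counts in mot2∆ and 2 and 3 counts in mamRNA∆, against 1 and 0 counts in wt. That is 1.51 and 0.957 CPM in mot2∆ mamRNA∆, with exact Poisson 95% intervals of 1.12 to 1.99 and 0.641 to 1.38 CPM. The mot2∆ libraries were at 1.03 CPM (0.698 to 1.46) and 2.08 CPM (1.60 to 2.66). In mamRNA∆ and wt all 4 libraries were at or under the floor of 3 counts, and the highest upper limit among them was 0.262 CPM, in wt. These intervals cover counting error only.

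Both genotypes without Mot2 therefore stood above both with it, while the 2 genotypes without Mot2 overlapped each other (log2 difference of the double mutant from mot2∆ -0.32, SE 0.33). In mot2∆, the mean shu1 level of the 2 libraries was 11-fold the floor in wt (adjusted p against wt = 6.20e-05, edgeR). The double mutant mean was 8.77-fold that floor and 12.5-fold the floor in mamRNA∆. These folds set a mean against a floor, leave out counting error and are not lower limits. No fold is given for mamRNA∆ against wt. shu1 passed the filter on low counts only through the libraries without Mot2, so the direction of its call was fixed by that filter.

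The abc3 gene (chrII:122642-127461, plus strand, 1 coding exon of 4398 bases) encodes an ABC transporter of the vacuole membrane that is known for moving stored heme in iron-starved cells. It had 244 and 230.0 CPM in mot2∆ mamRNA∆, 104 and 155 CPM in mot2∆ and 53.1 and 54.3 CPM in mamRNA∆, against 96.8 and 90.6 CPM in wt. No library of one genotype overlapped another, and the order ran from the double mutant through mot2∆ and wt to mamRNA∆. Among the 7 genes, abc3 was the only one that passed the test in mamRNA∆, where it fell by 0.80 on the log2 scale (SE 0.14, adjusted p = 0.000704, edgeR), to 0.573 of the wt level. In mot2∆ it rose by 0.47 (SE 0.13, adjusted p = 0.00972). That rise rested on few libraries: it was 0.16 (adjusted p = 0.118) without mot2∆ replicate 2 and 0.42 (adjusted p = 0.103) without wt replicate 2. The double mutant lay 1.34 above wt (SE 0.14), 0.87 above mot2∆ (SE 0.13) and 2.14 above mamRNA∆ (SE 0.14).

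An abc3 antisense feature is listed inside abc3, and its counts were 56.3% to 62.4% of those of abc3 in every library. With that share so even across genotypes and strand not used, no separate antisense level can be given. The non-coding RNAs SPNCRNA.294 and SPNCRNA.1313 also overlap the end of abc3, by 151 and 80 bases.

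Ferrichrome is built inside the cell, and its synthesis genes moved little. sib1 (chrI:854453-869684, minus strand, 14775 coding bases) encodes the large non-ribosomal peptide synthetase that assembles ferrichrome. It had 460.4 and 447 CPM in mot2∆ mamRNA∆, 542 and 512 CPM in mot2∆ and 460.4 and 471 CPM in mamRNA∆, against 454 and 433 CPM in wt. The mot2∆ libraries were above all others, and the double mutant overlapped wt and mamRNA∆. In mot2∆, sib1 passed as higher by 0.25 (SE 0.07, adjusted p = 0.0114, edgeR). sib1 did not pass when only mot2∆ and wt were fitted (adjusted p = 0.0817), and its change was 0.22 without mot2∆ replicate 1. The mamRNA∆ change was 0.07 (SE 0.07, adjusted p = 0.459).

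sib2 (chrI:870793-872773, plus strand, 1 coding exon of 1296 bases) encodes the ornithine hydroxylase of the pathway and lies head to head with sib1, 1108 bases away. It had 102 and 96.2 CPM in mot2∆ mamRNA∆, 129 and 137 CPM in mot2∆ and 113 and 115 CPM in mamRNA∆, against 125 and 112 CPM in wt. The mot2∆ libraries were highest and the double mutant lowest, both clear of wt by a small step. The mot2∆ change of 0.17 (SE 0.07, adjusted p = 0.0572) and the mamRNA∆ change of -0.05 (SE 0.07, adjusted p = 0.589) did not pass the test. The double mutant lay at -0.25 against wt (SE 0.07) and at -0.42 against mot2∆ (SE 0.07), while sib1 was at 0.03 and -0.22 (SE 0.07 each). The third synthesis gene, sib3, is listed as SPBC17G9.06c. It was slightly lower in mot2∆, by -0.29 (SE 0.07, adjusted p = 0.00346), and in the double mutant, by -0.18 (SE 0.07, adjusted p = 0.0389).

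Expressed per kilobase of annotated span so that genes can be compared, wt levels ran from 157 and 134 CPM per kb for str1 and 62.9 and 56.4 for sib2, through 29.8 and 28.4 for sib1 and 20.1 and 18.8 for abc3, to 1.96 and 2.53 for str3 and 0.0659 and 0 for shu1. In mot2∆ mamRNA∆, str3 stood at 197 and 194 CPM per kb, above abc3, sib1 and sib2 and below str1 at 620 and 590 CPM per kb. str2 is left out of this order because most of its counts were shared.

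Over the 7 genes, 4 exceeded 2-fold in mot2∆ mamRNA∆ against wt, namely str1, str3, shu1 and abc3, where 3.26% of all features did so. The set was chosen on this comparison, and the share is given for scale only. The same 4 genes exceeded 2-fold in the double mutant against mamRNA∆ (4.23% of features). str3 alone did so against mot2∆ (2.33% of features), and without mot2∆ replicate 2 abc3 did too, at 1.18. The median log2 fold change of the 7 was 1.34 in the double mutant against wt and 0.47 in mot2∆ against wt, beside -0.01 over all features in both, and each median was the value of abc3. Both mot2∆ libraries lay above both wt libraries for 6 of the 7 genes and below for str2, which 37.8% and 38.1% of features also did.

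The step between genotypes with and without mamRNA was also set side by side in cells without and with Mot2. For abc3, both mamRNA∆ libraries lay below both wt libraries, whereas both double mutant libraries lay above both mot2∆ libraries. The double mutant exceeded the sum of the single mutant changes by 1.67 for abc3 (SE 0.19), 0.90 for str1 (SE 0.14) and 1.78 for str3 (SE 0.59). It fell short of that sum for sib1 (-0.29, SE 0.10) and sib2 (-0.37, SE 0.10). These differences involve the libraries that chose the set and were not tested.

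**Figure D3:**
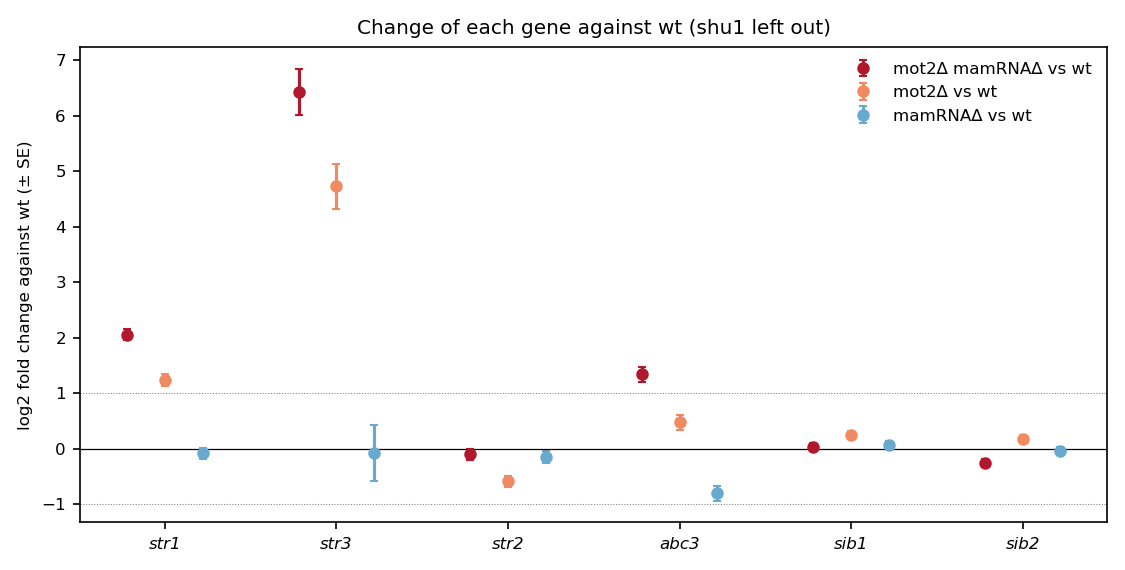
Log2 fold change against wt (y axis, bars ± SE) of 6 genes in mot2∆ mamRNA∆, mot2∆ and mamRNA∆, 2 libraries each; dotted lines mark 2-fold. shu1 is left out because wt held no more than 1 count of it. str3 reaches 6.43 in the double mutant and 4.73 in mot2∆, and abc3 falls below 0 in mamRNA∆ alone.

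The mot2∆ replicates differed for some of the genes that rose. Replicate 2 exceeded replicate 1 by 2.79-fold for str3, 2.02-fold for shu1 and 1.49-fold for abc3, all beyond the difference of 0.42 on the log2 scale that contained 95% of features between these libraries. str1 differed only 1.07-fold, and sib1, at 0.946, was the 1 gene lower in replicate 2. The other iron uptake genes fip1 (1.97-fold), fio1 (1.74-fold), frp1 (1.49-fold) and frp2 (1.40-fold) differed the same way. In the double mutant, replicate 2 over replicate 1 was 0.951 for str1, 0.985 for str3 and 0.944 for abc3, and shu1, at 29 to 50 counts, was the 1 member beyond the 95% range. Whether the mot2∆ difference lies in the cultures or the libraries was not tested.

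**Figure D4:**
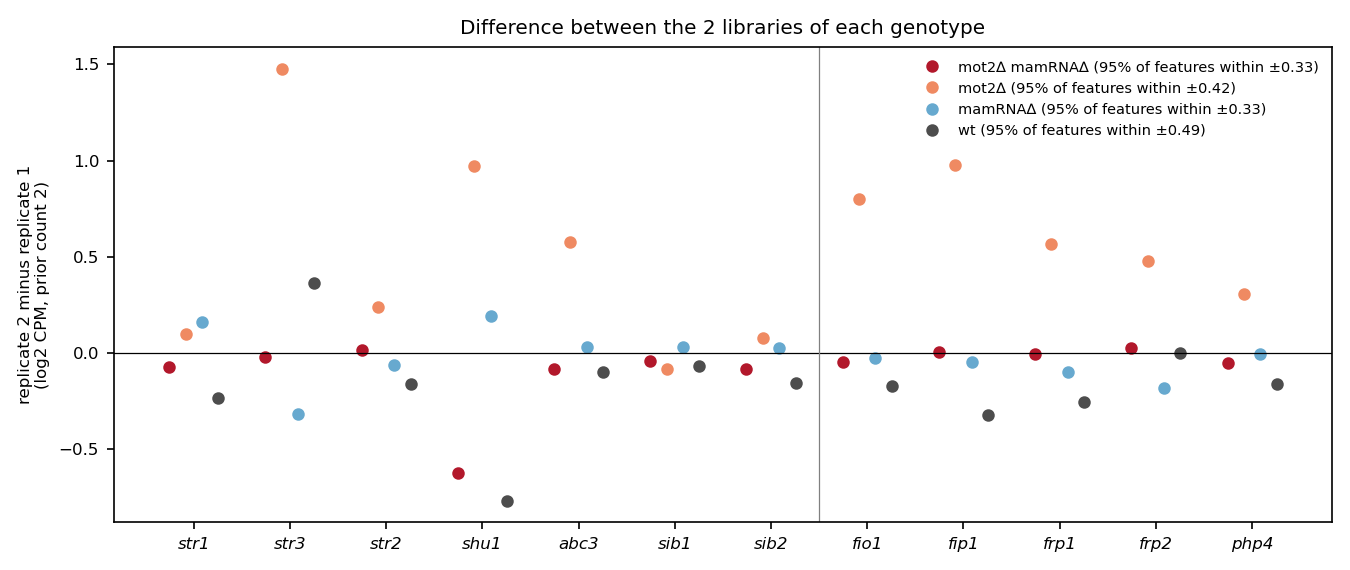
Difference between replicate 2 and replicate 1 (y axis, log2 CPM with a prior count of 2) of each genotype for the 7 genes, left of the line, and 5 other iron genes, right of it. The mot2∆ points for str3, shu1, abc3 and the reductive uptake genes lie above the 0.42 that contained 95% of features in mot2∆.

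shu1 and str3 are neighbours on chromosome I, 1922 bases apart on the same strand, and the features around them also moved. SPNCRNA.604, beyond str3, had 9.77 and 9.54 CPM in mot2∆ mamRNA∆, 2.82 and 4.78 CPM in mot2∆ and 1.22 and 1.47 CPM in mamRNA∆, against 0.751 and 1.12 CPM in wt. It was called higher in mot2∆ (1.99, SE 0.30, adjusted p = 0.000116, edgeR) and in the double mutant (3.33, SE 0.26, adjusted p = 7.28e-07). On the other side, 779 bases from shu1, the hexose transporter gene ght3 had 234 and 193 CPM in mot2∆ mamRNA∆, 678 and 431 CPM in mot2∆ and 99.0 and 105 CPM in mamRNA∆, against 70.3 and 51.6 CPM in wt. ght3 was thus highest in mot2∆ rather than in the double mutant, by 3.19 (SE 0.20, adjusted p = 8.46e-08) against 1.81 (SE 0.19, adjusted p = 6.57e-06) relative to wt. The next gene beyond SPNCRNA.604, SPAC1F8.04c, named after its values were seen, was also called higher in mot2∆ (1.93, SE 0.14, adjusted p = 4.07e-07) and in the double mutant (2.27, SE 0.14, adjusted p = 1.27e-07). In mamRNA∆, ght3 (0.75, SE 0.19, adjusted p = 0.00714) and SPAC1F8.04c (0.69, SE 0.15, adjusted p = 0.00348) also passed as higher than wt, and SPNCRNA.604 did not pass (0.50, SE 0.35, adjusted p = 0.274). All 3 mutants thus had raised features beside shu1 and str3, with smaller changes in mamRNA∆. The order of the double mutant and mot2∆ differed between ght3 and str3.

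Of 35 other genes of iron handling, listed by name and all tested, 1 was called higher and 0 lower in mot2∆ against wt, at or below the 4.68% and 3.88% of all features called. In mamRNA∆ 0 were called higher and 1 lower, where 2.52% and 1.47% of features were. In the double mutant against wt 3 were called higher and 0 lower, where 3.04% and 5.76% of features were. Those called were mostly the genes of the reductive route, in which Frp1 and Frp2 are ferric reductases, Fio1 is the multicopper ferroxidase and Fip1 its permease partner.

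fio1 had 635 and 615 CPM in mot2∆ mamRNA∆, 204 and 355 CPM in mot2∆ and 184 and 180.2 CPM in mamRNA∆, against 344 and 306 CPM in wt. fip1 had 341 and 342 CPM in mot2∆ mamRNA∆, 98.2 and 193 CPM in mot2∆ and 102 and 99.2 CPM in mamRNA∆, against 189 and 151 CPM in wt. frp1 had 29.6 and 29.4 CPM in mot2∆ mamRNA∆, 11 and 16.4 CPM in mot2∆ and 4.12 and 3.84 CPM in mamRNA∆, against 17 and 14.3 CPM in wt. For these 3 genes the double mutant was highest and mot2∆ overlapped wt, and mamRNA∆ was clear below wt but overlapped mot2∆ for fip1. frp2 had 25.3 and 25.9 CPM in mot2∆ mamRNA∆, 7.20 and 10.05 CPM in mot2∆ and 3.82 and 3.36 CPM in mamRNA∆, against 5.63 and 5.64 CPM in wt, an order like that of abc3.

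All 4 reductive uptake genes passed the test as lower in mamRNA∆ against wt and as higher in the double mutant against wt, where 22.7% and 28.9% of features did. In mamRNA∆ frp1 was called lower (-1.97, SE 0.18, adjusted p = 5.82e-06, edgeR), and the other 3 were lower by -0.66 to -0.84. In mot2∆ only frp2 passed (0.61, SE 0.16, adjusted p = 0.00538). In the double mutant frp2 was higher by 2.182 (SE 0.15, adjusted p = 2.42e-07) and fip1 by 1.01 (SE 0.22, adjusted p = 0.00159), and fio1 and frp1 passed at 0.94 and 0.92. Against mot2∆ all 4 were called higher in the double mutant, by 1.11 to 1.57, where 2.15% of features were called higher and 4.59% lower, and against mamRNA∆ by 1.76 to 2.89 (4.15% of features). These calls against mot2∆ depended on 1 library: of the 5 other iron genes called in that comparison, 2 were called without mot2∆ replicate 1. The effect of deleting mamRNA differed with Mot2 for all 4, which exceeded the sum of the single mutant changes by 1.98 to 3.08 and were called in that interaction (4.46% of features). The low level in mamRNA∆ is thus shared by these genes and abc3. It is not particular to them, since 11 of the 35 other iron genes passed lower there and 4 higher (22.7% and 19.9% of features). str1 and str3 did not pass as lower in mamRNA∆. With an SE of 0.51, the test for str3 could have missed a fall of 0.66 to 0.84.

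**Figure D5:**
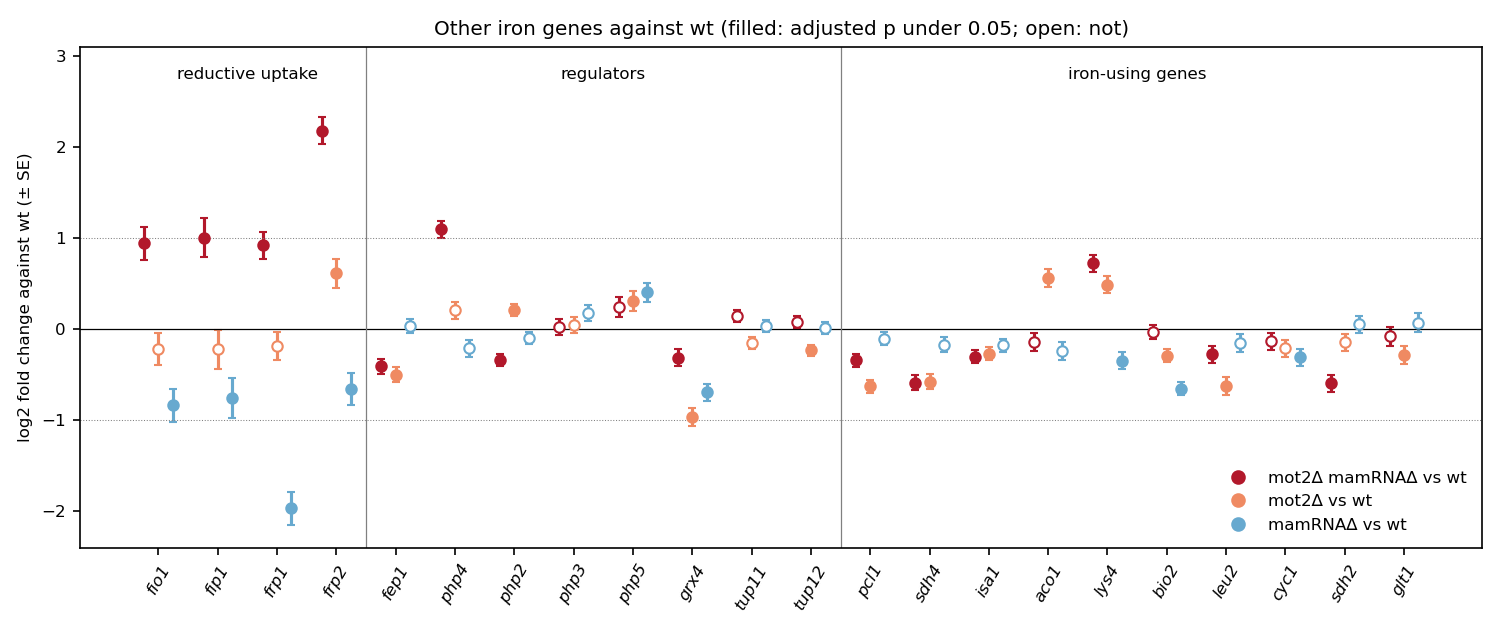
Log2 fold change against wt (y axis, bars ± SE) of the reductive uptake, regulator and iron-using genes in mot2∆ mamRNA∆, mot2∆ and mamRNA∆, filled where the adjusted p (edgeR) was under 0.05. The 4 reductive uptake genes are above 0 in the double mutant and below 0 in mamRNA∆, and among the regulators php4 alone exceeds 2-fold.

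Of the 8 regulator genes, php4 was the only one called in a comparison between genotypes. It had 99.5 and 96.0 CPM in mot2∆ mamRNA∆, 47.1 and 58.2 CPM in mot2∆ and 39.5 and 39.4 CPM in mamRNA∆, against 48.2 and 43.2 CPM in wt. It was higher in the double mutant than in wt by 1.10 (SE 0.09, adjusted p = 1.45e-06, edgeR) and did not pass in mot2∆ (0.21, SE 0.09, adjusted p = 0.0794) or in mamRNA∆ (-0.21, SE 0.10, adjusted p = 0.0943). fep1 had 141 and 132 CPM in mot2∆ mamRNA∆, 136 and 119.8 CPM in mot2∆ and 179 and 192 CPM in mamRNA∆, against 192 and 171 CPM in wt. It was lower in both genotypes without Mot2, by -0.41 in the double mutant (SE 0.08, adjusted p = 0.00105) and by -0.50 in mot2∆ (SE 0.08, adjusted p = 0.000242), with no overlap between their libraries and those of wt. In mamRNA∆ fep1 was at 0.03 (SE 0.08, adjusted p = 0.762). grx4, a monothiol glutaredoxin that binds Fep1 and Php4, passed as lower in the double mutant (-0.31, SE 0.10), mot2∆ (-0.97, SE 0.10) and mamRNA∆ (-0.70, SE 0.10).

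The 10 genes listed as iron-using and repressed by Php4 showed no call against wt. By the p alone, 1 passed higher and 5 lower in the double mutant (28.9% and 30.5% of features). In mot2∆ 2 passed higher and 6 lower (29.1% and 30.2% of features), and in mamRNA∆ 0 higher and 3 lower (19.9% and 22.7%). The median was -0.21 in the double mutant and -0.28 in mot2∆. The 2 that passed higher in mot2∆ were lys4 and aco1, which encodes the mitochondrial aconitase and was named after its values were seen. aco1 was higher by 0.56 in mot2∆ (SE 0.10, adjusted p = 0.000421, edgeR) and at -0.14 in the double mutant (SE 0.10, adjusted p = 0.243). lys4, a gene of lysine synthesis, was higher than wt by 0.72 in the double mutant (SE 0.09, adjusted p = 2.85e-05, edgeR). In mot2∆ lys4 was higher by 0.49 (SE 0.09, adjusted p = 0.000608, edgeR). Of the 8 heme synthesis genes, ups1 (uroporphyrinogen-III synthase) was called higher in mot2∆ (1.32, SE 0.09, adjusted p = 2.10e-07) and returned to 0.04 in the double mutant (SE 0.09, adjusted p = 0.735). Of 4 genes for copper supply to the ferroxidase, 0 were called in any comparison. By the p alone, 2 passed lower in mot2∆ (30.2% of features) and 2 higher in mamRNA∆ (19.9%) against wt.

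Across the 8 libraries, str1, str3, shu1 and abc3 followed each other, with Pearson's r between 0.759 (shu1 and abc3) and 0.983 (str1 and str3) on log2 CPM. sib1 and sib2 had r = 0.691 with each other. These values describe 8 libraries that share 4 genotypes. str1, str3, shu1 and abc3 are also the members that exceeded 2-fold in the double mutant, whose libraries enter r. Their high r is therefore no independent result. The mean of the 7 standardised profiles gives equal weight to the whole str2 feature, most of whose counts were shared with rpl6. With that mean, str2 had r = -0.47 and sib2 0.06, and the ranking of other features by likeness rests on it too. Among 274 other sense features whose genotype means spanned at least 2 on the log2 scale, the 5 most like that mean were SPAC750.08c (r = 0.965), mpd2 (0.963), SPAC869.05c (0.944), nce103 (0.943) and mug45 (0.928). As an example, mpd2 averaged 9.24 log2 CPM in mot2∆ mamRNA∆, 9.05 in mot2∆ and 7.08 in mamRNA∆, against 7.43 in wt. None of the 5 is among the iron genes listed.

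Genes of mating and meiosis rose in mot2∆, and most of them did not pass as higher than wt in the double mutant. Of 11 such markers, 9 were called higher in mot2∆ against wt, where 4.68% of features were. In the double mutant 0 were called higher and 1 lower, where 3.04% and 5.76% of features were. By the p alone, 3 of the 11 passed higher and 3 lower there, where 28.9% and 30.5% of features did. The mating markers that passed higher were mfm1 by 0.68, mfm2 by 0.65 and mam2 by 0.41. Against mamRNA∆, 2 were called higher, mfm1 at 1.44 and mam2 at 1.25 (4.15% of features), and 0 lower. Their summed level was 1048 and 980 CPM in mot2∆ mamRNA∆, 3170 and 2930 CPM in mot2∆ and 890 and 962 CPM in mamRNA∆, against 1271 and 1026 CPM in wt, and none of the 11 was at 0 in any library. The summed level of 9 markers of stress and late growth was 3924 and 3713 CPM in mot2∆ mamRNA∆, 6230 and 5724 CPM in mot2∆ and 6307 and 6890 CPM in mamRNA∆, against 5060 and 4598 CPM in wt. The double mutant, in which str1, str3 and abc3 were highest, thus had summed mating markers at or near the wt range and the lowest summed stress markers. Single stress markers differed. Against wt in the double mutant, 2 of the 9 passed higher and 6 lower, where 28.9% and 30.5% of features did. Those higher were isp4 by 0.93 (SE 0.13, adjusted p = 8.43e-05, edgeR) and fnx1 by 0.36 (SE 0.07, adjusted p = 0.000532). The part of either list in the members' changes was not tested.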

How the data were processed

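The authors trimmed paired 75-nt reads of ribosome-depleted RNA with Cutadapt 1.15 (bcl2fastq 2.18.12 before it), aligned them with Bowtie2 and counted them with MulticovBed, as the methods and the submitters' processing notes give it. The values the authors deposited are raw read counts per feature, with no normalization. Genome build, annotation and strand setting of that counting are not given in the sources used here. Groups and replicate numbers came from the titles.

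In R 4.3.3, edgeR 4.0.16 kept 6620 of 6973 features (filterByExpr, minimum count 10, minimum total 15), scaled by TMM and fitted all 8 libraries with 1 coefficient per genotype, leaving 4 residual degrees of freedom. Quasi-likelihood F tests were two-sided, with Benjamini-Hochberg adjustment over all features tested. SE is the log2 fold change divided by the square root of F. The 3-count floor is converted at the shallower library of the reference genotype. The script was tested on simulated data. Alternatives were RLE scaling, scaling by total counts, DESeq2 1.42.0, other count filters, no antisense features, only the genotypes compared, a replicate block and each library left out. Positions and sequences are from RefSeq ASM294v3.

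The members and all lists were chosen with earlier results of these data known. Named beyond the members were the listed iron genes called in any contrast, sib3 as the remaining ferrichrome synthesis gene, fep1, php4, neighbouring features, and the 5 features most like the members' mean profile.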

Additional observations from a re-analysis of the deposited data

Results flagged for a closer look

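The effect of deleting mamRNA was compared between cells with and without Mot2. For 3 members both libraries moved one way in cells with Mot2 and the other way in cells without it. The share of all features that did so is not given. The difference, the double mutant minus the sum of the single mutant changes on the log2 scale, was not tested: 1.67 for abc3, 0.63 for str2 and -0.29 for sib1. Of the 3, only abc3 passed the test in mamRNA∆ against wt (adjusted p = 0.000704, edgeR). There str2 was at -0.15 (adjusted p = 0.246) and sib1 at 0.07 (adjusted p = 0.459). With the counts of rpl6 and jmj4 taken away, the str2 difference was 0.14. The str2 remainder then moved down both with Mot2 (-0.25) and without it (-0.10).

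Among the other iron genes the same difference was tested in edgeR (adjusted p over all features). It was 3.08 for frp1 (adjusted p = 8.05e-07), 2.22 for frp2 (7.41e-06), 2.00 for fio1 (5.23e-05), 1.98 for fip1 (0.000233), 1.35 for grx4 (9.11e-06) and 1.10 for php4 (3.18e-05), where 4.46% of features were called positive. All 6 were higher than the single mutant changes add up to, and for frp1 most of the value came from its low level in mamRNA∆.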

How the results depend on the processing

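Of 706 recomputed fold changes of members, 9 had another sign than the reported value. In mamRNA∆ against wt, str1 ran from -0.20 to 0.0515 (without wt replicate 1), sib2 from -0.13 to 0.0443 (without wt replicate 1) and str3 from -0.24 to 0.13 (0.13 without wt replicate 2 and 0.08 without mamRNA∆ replicate 2). In the double mutant, shu1 was at 0.27 against mot2∆ without mot2∆ replicate 2, sib1 at -0.02 against wt and str2 at -0.04 against mamRNA∆ with scaling by total counts, str2 at -0.10 against mot2∆ without the rpl6 and jmj4 counts, and sib1 at about 0 against wt without wt replicate 2. Leaving out 1 library gave 1 to 2 other iron genes called in mot2∆ against wt, 2 to 5 in the double mutant against wt (5 without wt replicate 1) and 2 to 6 against mot2∆ (2 without mot2∆ replicate 1). Members over 2-fold against mot2∆ were 1 to 2 (2 without mot2∆ replicate 2). sib2 in mot2∆ passed under several settings, for example 0.27 (adjusted p = 0.00900) without wt replicate 1. Requiring 10 counts in every library removed shu1.

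Replicate numbers did not pair the samples (r of replicate differences across features -0.108 to 0.163). With the replicate block, 3 members were called higher in mot2∆ and 2 other iron genes in the double mutant against wt. With the mamRNA∆ numbers crossed, added after seeing the data, these counts were 3 and 2. Scaling by total counts put the median of all features at -0.11 in the double mutant against mamRNA∆. It called 93 features higher and 369 lower against mot2∆, where TMM called 142 and 304.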
